A study of Homo sapiens with 2 samples.

Results

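Short RNAs known under miRNA names but tied to nuclear ribosomal RNA or to mitochondrial RNA were followed in exosomes of a liver cancer line. The 8 of them were taken by name from the array's own list: hsa-miR-3687, hsa-miR-663b, hsa-miR-6724-5p, hsa-miR-7641, hsa-miR-4485-3p, hsa-miR-4485-5p, hsa-miR-4461 and hsa-miR-4484. All 8 names were found, with 1 spot each, among the 2565 miRNA probes of the array. The samples were exosome preparations, pelleted by ultracentrifugation, from 2 cultures of HuH-7, an established human hepatocellular carcinoma line, labelled HuH-7-M and HuH-7-P. The sources used here do not spell out M and P or give the origin of either culture, and the study's title concerns cell lines with high intrahepatic metastasis. Both cultures shared growth in medium with 10% serum and antibiotics, a later change to advanced DMEM and filtration of the supernatant, and the extraction text speaks of RNA from cells although the sample names speak of exosomes. Each group is 1 Cy5-labelled array, so that no difference below has a replicate or a test, and the number of arrays limits the precision.

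Ribosomal RNA of the nucleus is transcribed as a long 45S precursor from repeated genes on the short arms of the acrocentric chromosomes and is cut into 18S, 5.8S and 28S RNA, while transcribed spacers are discarded. Mitochondria make their own 12S and 16S ribosomal RNA, and copies of mitochondrial DNA are scattered through the nuclear chromosomes. Some short RNAs entered in miRNA catalogues match such RNAs, and a probe for one of them cannot tell a processed miRNA from a fragment of the abundant parent RNA with the same letters.

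The name-based origin was checked against the RefSeq tables of GRCh38.p14, which hold 4 of the 8 miRNAs under a mature name. MIR6724 has 4 copies on chromosome 21. For MIR6724-1, MIR6724-3 and MIR6724-4 the next gene is a 45S precursor gene (RNA45SN2, RNA45SN3 and RNA45SN1), and for MIR6724-2 it is the 18S pseudogene RNA18SP5, so that each copy lies beside, and not inside, an annotated ribosomal gene or pseudogene. MIR663B lies on chromosome 2 within ANKRD30BL and within the pseudogene LOC107985804, and the span of an enclosing gene also holds RNA5-8SP5, a 5.8S pseudogene. MIR4485 lies on chromosome 11 within MTRNR2L8, named as a relative of the mitochondrial 16S gene RNR2. MIR4484 lies on chromosome 10 within UROS, a gene of heme synthesis, and the gene table places no ribosomal RNA gene around it. It is listed here as a miRNA reported to match mitochondrial DNA, and this annotation shows no ribosomal origin for it. As background, hsa-miR-3687 is known from the spacer part of the 45S precursor and hsa-miR-4461 from a match to mitochondrial DNA. hsa-miR-7641 is listed here with nuclear ribosomal RNA, and which ribosomal RNA it matches was not checked.

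The mature sequences show what each probe addresses and how unlike the members are. They are RefSeq sequences (GRCh38.p14), written 5′ to 3′ with the seed, bases 2 to 8, in capitals.
hsa-miR-6724-5p: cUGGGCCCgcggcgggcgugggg
hsa-miR-663b: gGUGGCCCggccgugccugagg
hsa-miR-4485-3p: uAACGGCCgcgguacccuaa
hsa-miR-4484: aAAAGGCGggagaagcccca
hsa-miR-6724-5p was read from chr21:8249515-8249537 and chr21:8432540-8432562, both on the plus strand, and hsa-miR-663b from chr2:132256970-132256991 on the minus strand. hsa-miR-4485-3p is at chr11:10508277-10508296 on the minus strand and hsa-miR-4484 at chr10:125819803-125819822 on the plus strand. The 4 seeds differ from one another. hsa-miR-6724-5p holds 91.3% G and C bases and hsa-miR-663b 81.8%, against a median of 52.2% over the 2264 probes with a RefSeq mature sequence, while hsa-miR-4485-3p and hsa-miR-4484 hold 60.0% each. hsa-miR-4484 has no U at all and 8 A in its 20 bases. The longest run shared with any other matched miRNA on the array is 10 bases for hsa-miR-663b and 9 bases for each of the other 3. None of these 4 members therefore shares the 12 bases set as the limit for naming a near copy. The remaining 4 members have no RefSeq mature sequence and were not searched.

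The hairpin of MIR4485 shows the arm that hsa-miR-4485-3p comes from. It is given with that mature miRNA in capitals, from chr11:10508270-10508326 on the minus strand.
MIR4485 hairpin: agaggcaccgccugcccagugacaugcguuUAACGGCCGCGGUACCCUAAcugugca
The mature 3p sequence fills bases 31 to 50 of the 57, and the 5p arm has its own probe on the array.

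Signals are given in scanner units after subtraction of the array's own BLANK level, which averaged 58.7 on HuH-7-M against 59.7 on HuH-7-P. A pair of limits was set from control spots, each as their mean plus 2 SD after trimming. The BLANK limit fell at spot medians of 61.2 on HuH-7-M against 62.3 on HuH-7-P, and the higher No Probe limit at 89.9 against 86.9. All 8 members exceeded the BLANK limit on both arrays, as did 1593 of the 2565 probes. The higher limit was passed on both arrays by 6 members and by 790 probes in all, and hsa-miR-3687 and hsa-miR-4485-3p passed it on neither. All 85 No Probe spots of each array also exceeded the BLANK limit, so those 2 members lie in a range where spots without a miRNA probe read too. Differences are log2 ratios of HuH-7-M over HuH-7-P, either of the BLANK-subtracted signals before any scaling, or after normexp correction with an offset of 50 and quantile normalization, called normalized below. The offset draws dim probes toward 0, and the quantile step draws the bright ends of the 2 arrays together.

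Before scaling and after quantile normalization, each miRNA listed with nuclear ribosomal RNA had the higher value in HuH-7-M exosomes, and of the mitochondrial ones hsa-miR-4484 alone did. Before scaling, all 4 of the nuclear members were above 0 with a median of 0.66, and 1 of the 4 mitochondrial members was, with a median of -0.20. Between 41.5% and 84.5% of the measured miRNAs were brighter on HuH-7-M before scaling, depending on their class of brightness. Of the nuclear members, hsa-miR-3687 passed the No Probe limit on neither array and hsa-miR-663b lay within the spread of spots. Such counts do not set the nuclear apart from the mitochondrial members. Normalized, the counts above 0 were the same, with medians of 0.24 and -0.02. The direction of the nuclear members depended on the scale: hsa-miR-3687, hsa-miR-663b and hsa-miR-7641 turned below 0 when the arrays were scaled to the Spike Control spots, and all 4 did when they were scaled to the bright control probes S-Probe26 to S-Probe28. The median over all 8 members was 0.32 before scaling and 0.14 normalized, beside 0.00 and 0.01 over the 1593 miRNAs measured on both arrays.

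No member reached 2-fold in either direction after normalization, while 0.439% of the 1593 miRNAs did so upward in HuH-7-M exosomes and 1.69% downward. Nor did any with the offset of 50 and no scaling, beside 1.19% upward and 1.63% downward. Before scaling and without the offset 1 member, hsa-miR-4484, passed 2-fold upward, as 3.33% of all measured miRNAs did. In the brightness class of hsa-miR-4484, the 84 miRNAs with a geometric mean signal of 1000 or more, 10.7% did. No member passed 2-fold downward, as 4.46% of all measured miRNAs did. On the scale of S-Probe26 to S-Probe28, hsa-miR-4485-3p, hsa-miR-4485-5p and hsa-miR-4461 passed 2-fold downward, as 48.1% of all measured miRNAs did, and none passed it upward, beside 0.377%. With 8 members these counts set the group neither above nor below the rest of the array.

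**Figure D1:**
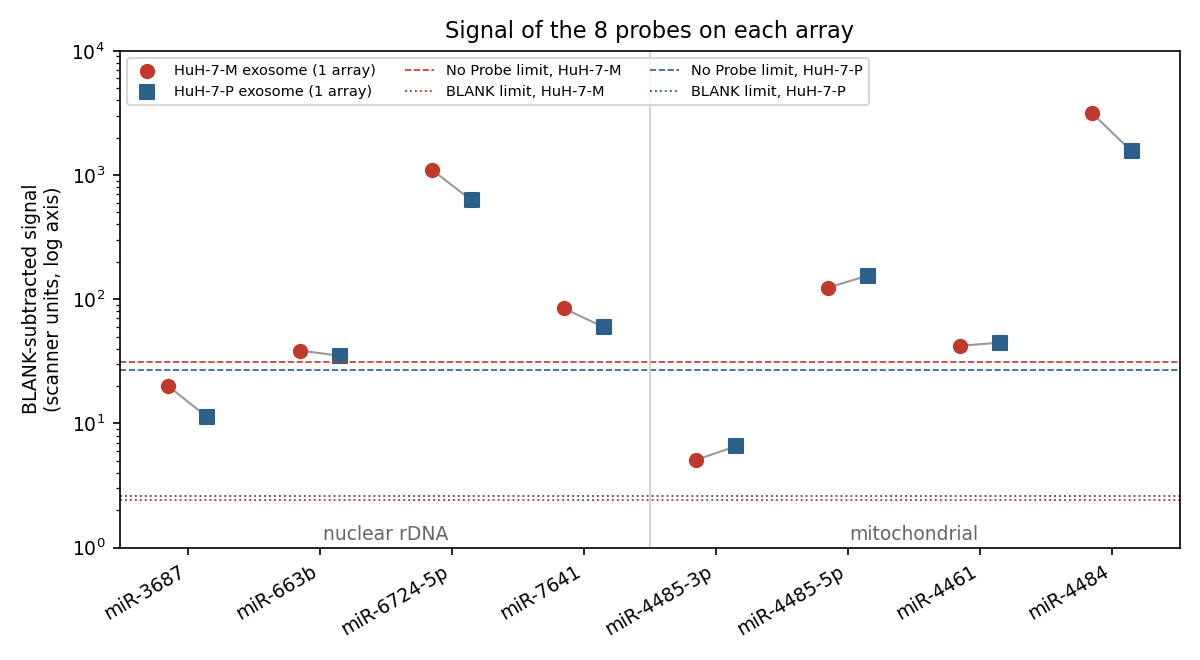
BLANK-subtracted signal of each of the 8 probes (scanner units, log axis) on the HuH-7-M array (circles, left) and the HuH-7-P array (squares, right), 1 spot each, with the BLANK limit (dotted) and the No Probe limit (dashed) of each array. hsa-miR-4484 (3153 on HuH-7-M, 1552 on HuH-7-P) and hsa-miR-6724-5p (1101 and 626) stand clear of both limits, and hsa-miR-3687 and hsa-miR-4485-3p lie between them.

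Among the miRNAs beside nuclear ribosomal genes, hsa-miR-6724-5p, the sequence flanking the 45S genes, had a signal of 1101 on HuH-7-M against 626 on HuH-7-P. The HuH-7-M value was 1.76-fold the HuH-7-P value, a log2 difference of 0.82 before scaling and of 0.63 normalized. These lay at the 93.4th and the 97.5th percentile of the measured miRNAs. It had the highest normalized difference of the 8. Repeated spots of S-Probe27, an unnamed control probe of comparable brightness, spread with an SD of a difference between 2 spots of 0.18 (log2, 8 spots per array), so the gap in hsa-miR-6724-5p was larger than the spread between spots. S-Probe27 itself was 2.04-fold brighter on HuH-7-M (795 against 391). The files do not say what it detects, and the part of whatever raised it in the hsa-miR-6724-5p value was not tested.

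hsa-miR-7641, listed with nuclear ribosomal RNA, read 84.3 on HuH-7-M against 59.8 on HuH-7-P, a 1.41-fold difference (0.49 before scaling, 0.28 normalized). Both spots passed the No Probe limit. Of the control probes nearest in brightness, S-Probe22 differed by 0.13 with an SD of a difference between 2 spots of 0.21, and S-Probe6 differed by 1.47 (63.2 against 22.9) with an SD of 0.19. The gap in hsa-miR-7641 before scaling was larger than either spread between spots, and what raised S-Probe6 was not tested as a part of it. hsa-miR-663b read 38.7 and 35.1 in the same order, which is 0.14 before scaling and 0.08 normalized. S-Probe22 is the control probe nearest to it too, and the arrays did not separate hsa-miR-663b beyond the spread of spots.

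hsa-miR-3687, the spacer miRNA, was dim, with a signal of 20.1 on HuH-7-M against 11.2 on HuH-7-P. That is a 1.79-fold difference before scaling (0.84), but 0.20 with the offset. Control probes of that brightness differed among themselves. S-Probe2 averaged 13.5 on HuH-7-M against 9.49 on HuH-7-P (0.53), and Negative Control 3 averaged 15.8 and 11.2 (0.50). The 85 No Probe spots averaged 22.3 and 20.1 (0.17), and S-Probe7 averaged 18.2 and 25.7 (0.06 as a mean of logs). The SD of a difference between 2 single spots was 0.42 for S-Probe2, 0.34 for Negative Control 3, 0.58 for the No Probe spots and 1.48 for S-Probe7. The hsa-miR-3687 value exceeds some of these spreads and not others, and the part of background in it was not tested.

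Among the mitochondrial members, hsa-miR-4484, encoded within UROS, had a signal of 3153 on HuH-7-M against 1552 on HuH-7-P. Its difference of 2.03-fold (1.02 before scaling) was the one member's difference past 2-fold. It lay at the 96.7th percentile of the measured miRNAs before scaling and at the 94.8th normalized. Quantile normalization brought it to 0.43, cyclic loess to 0.64, and a median scale left it at 1.01. The spot spread at this brightness was an SD of a difference of 0.17 (S-Probe26), so the gap in signal exceeded the spread between spots. S-Probe26, at 3074 on HuH-7-M against 1607 on HuH-7-P, was 1.92-fold brighter on HuH-7-M, and S-Probe28 averaged 24961 against 12513. What raised these control probes was not tested as a part of the hsa-miR-4484 value. Scaled to S-Probe26, S-Probe27 and S-Probe28, a setting added after seeing the data, hsa-miR-4484 came to 0.033 and hsa-miR-6724-5p to -0.17.

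**Figure D2:**
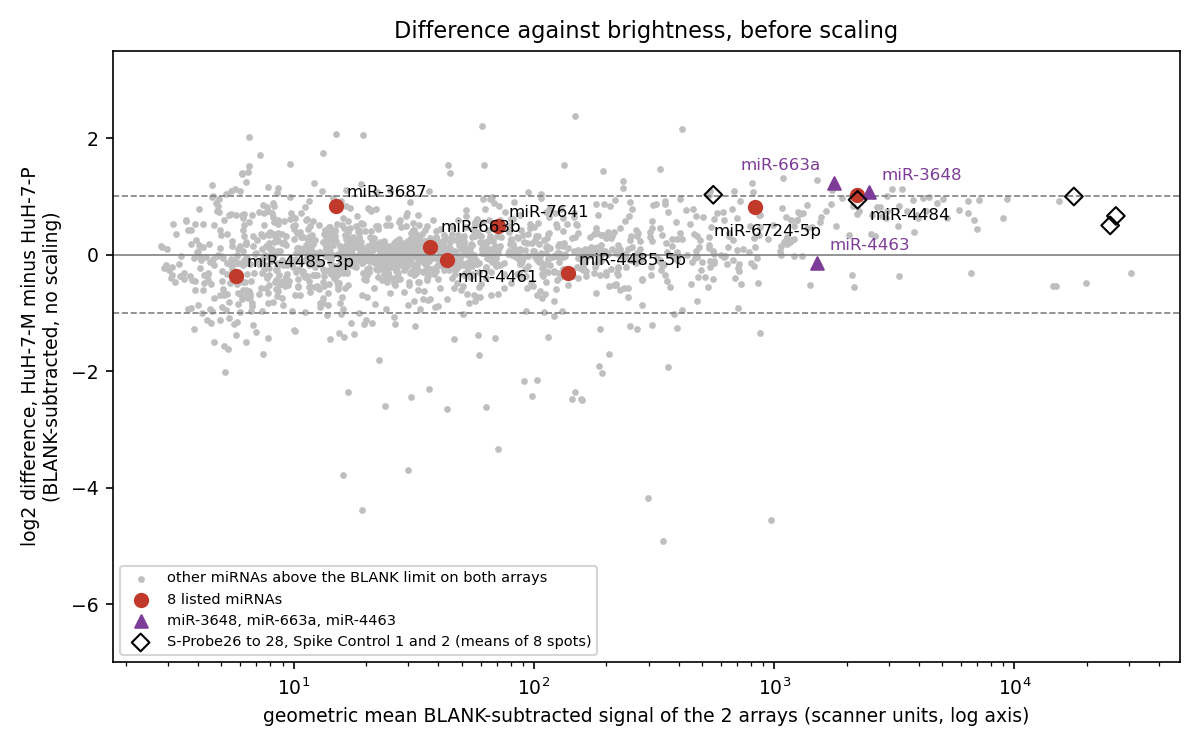
Log2 ratio of the BLANK-subtracted signals (HuH-7-M over HuH-7-P) before scaling, against the geometric mean signal of the 2 arrays (log axis), for the 1593 measured miRNAs, with the 8 members as large circles, hsa-miR-3648, hsa-miR-663a and hsa-miR-4463 as triangles and dashed lines at 2-fold. hsa-miR-4484 (1.02) lies with the bright control probes (diamonds, S-Probe26 at 0.94), and the dimmer members lie within the grey cloud.

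The bright end of the arrays as a whole was brighter on HuH-7-M. The 84 measured miRNAs with a geometric mean signal of 1000 or more had a median difference of 0.65 before scaling, with quartiles of 0.30 and 0.86, and 84.5% had the higher signal on HuH-7-M. hsa-miR-4484 belongs to them and lay above their upper quartile. In the class from 300 to 1000, which holds hsa-miR-6724-5p, the 126 miRNAs had a median of 0.07 and an upper quartile of 0.49. Within this class the 51 matched miRNAs with 70% or more G and C bases had a median of 0.32 and an upper quartile of 0.65, and the 64 below that share had a median of -0.09. hsa-miR-6724-5p, at 0.82, lay above the upper quartile of both the class and its G and C rich portion.

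hsa-miR-4485-5p, the 5p arm of the MIR4485 hairpin, read 124 on HuH-7-M against 155 on HuH-7-P. Its log2 difference was -0.32 before scaling and -0.19 normalized. S-Probe24, a control probe of that brightness, differed by -0.03 with an SD of a difference of 0.14. S-Probe21, somewhat brighter (262 against 225), differed by 0.19 with an SD of 0.32. The gap in hsa-miR-4485-5p before scaling was larger than the spread of S-Probe24 and about the size of that of S-Probe21, with no replicate array to check it. The 3p arm, whose sequence stands in capitals in the hairpin above, was near background: hsa-miR-4485-3p read 5.09 on HuH-7-M against 6.54 on HuH-7-P, and the gap of -1.45 units was smaller than the 2.31 units by which BLANK spots of the 2 arrays differ (SD of the difference). Its log2 values of -0.36 before scaling and -0.02 normalized therefore do not separate the arrays. hsa-miR-4461 read 42.2 on HuH-7-M against 44.7 on HuH-7-P (-0.08 before scaling, -0.01 normalized), within the 0.21 of S-Probe22.

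**Figure D3:**
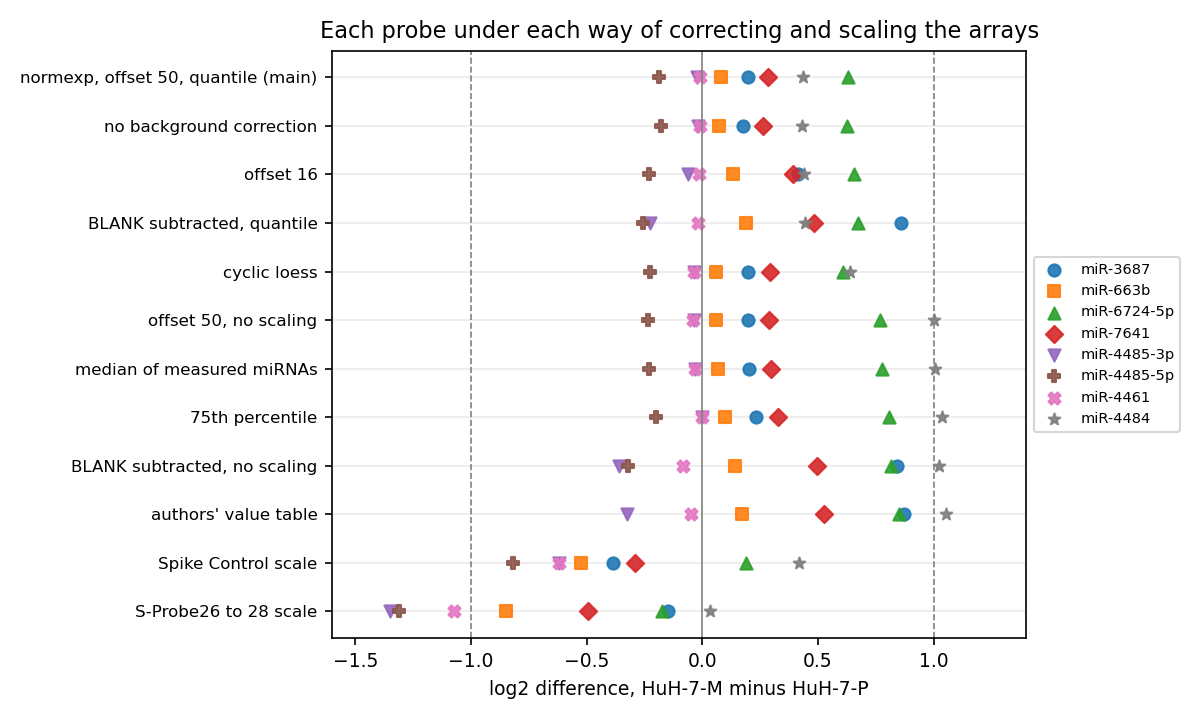
Log2 ratio of HuH-7-M over HuH-7-P for each of the 8 probes under the 12 ways of correcting and scaling the arrays, with dashed lines at 2-fold. hsa-miR-4484 stayed above 0 in all 12 (0.033 to 1.06), hsa-miR-4461 and hsa-miR-4485-5p stayed below 0 wherever they had a value, and the other 5 had values on both sides of 0.

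Over the 12 settings hsa-miR-4484 ranged between 0.033 and 1.06 and was at least 2-fold higher in 4 of them. hsa-miR-6724-5p ranged between -0.17 and 0.85 and was above 0 in 11. hsa-miR-3687, hsa-miR-663b and hsa-miR-7641 were above 0 in 10 settings each and below 0 in 2, the scales set by Spike Control spots and by S-Probe26 to S-Probe28. Under those 2 scales the measured miRNAs as a whole had medians of -0.58 and -0.99. Relative to these medians hsa-miR-4484 stood at 0.998 and 1.02, and hsa-miR-6724-5p at 0.77 and 0.81. Each of these 2 scales shifts all miRNAs by the same amount, so these distances only restate those found without scaling. They cannot show whether either difference withstands the 2 scales. Several of the 12 settings, such as no scaling, the median scale and the Spike Control scale, differ only by such a shift. The counts of settings are therefore not independent of one another.

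Other miRNAs listed beside the members, as of or like ribosomal DNA or as matching mitochondrial DNA, gave values on both sides. hsa-miR-3648, whose copy MIR3648-1 lies inside the 45S gene RNA45SN2, read 3599 on HuH-7-M against 1714 on HuH-7-P (1.07 before scaling, 0.43 normalized). hsa-miR-663a read 2727 and 1159 in the same order (1.23 and 0.69). The study had selected this pair from the same arrays, so neither is independent evidence of a direction. hsa-miR-4463, also reported to match mitochondrial DNA, read 1439 on HuH-7-M against 1582 on HuH-7-P (-0.14 and -0.60), opposite in sign to hsa-miR-4484. hsa-miR-663a and hsa-miR-663b share a number in their names and little sequence, as their letters show, again with the seed in capitals.
hsa-miR-663a: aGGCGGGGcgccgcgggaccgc
hsa-miR-663b: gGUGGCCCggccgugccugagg
Their longest common run is 4 bases, at most 10 bases match in any ungapped alignment, and hsa-miR-663a was 1.23 where hsa-miR-663b was 0.14 before scaling. hsa-miR-663a lies at chr20:26208243-26208264 on the minus strand, within the lncRNA gene MIR663AHG. The annotation shows no ribosomal RNA gene around it, nor around MIR4463, which lies within FILIP1.

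Of the matched miRNAs on the array, only hsa-miR-6773-5p has the seed of a matched member, and it shares UGGGCCC with hsa-miR-6724-5p. Members without a RefSeq mature sequence were not searched.
hsa-miR-6773-5p: uUGGGCCCaggaguaaacaggau
It lies at chr16:68233472-68233494 on the minus strand and shares no longer run than those 7 bases. Its spot medians of 60.4 on HuH-7-M against 62.9 on HuH-7-P were not above the BLANK limit on both arrays, so its own difference could not be read.

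miRNAs that match other structural RNAs moved in other ways in the same preparations. hsa-miR-1246 and hsa-miR-1290, which resemble U2 small nuclear RNA, differed by 2.16 and 2.37 before scaling, past every member. The transfer RNA related hsa-miR-4454, hsa-miR-7975, hsa-miR-7977 and hsa-miR-5100 lay between -0.53 and -0.32 before scaling, and hsa-miR-1260a and hsa-miR-1260b, of the same class, were 0.76 and 0.63. The signs of hsa-miR-1260a and hsa-miR-1260b depended on the scaling. Normalized they were 0.08 and 0.00, and on the scale of S-Probe26 to S-Probe28 they were -0.23 and -0.36. hsa-miR-7975, hsa-miR-7977 and hsa-miR-5100 were below 0 in all 12 settings, at -0.56, -0.36 and -0.67 normalized. hsa-miR-4454 was 0.00 normalized and above 0 in no setting. On the scale of S-Probe26 to S-Probe28 these other 4 lay between -1.52 and -1.31. The quantile step sets a probe of equal rank on both arrays to 0, as for hsa-miR-4454 (rank 1) and hsa-miR-1260b (rank 7). These differences between classes were not tested.

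The probes with signals most like a member's, by distance in the plane of the 2 log2 BLANK-subtracted signals over the 2 arrays, were named for each. For hsa-miR-4484 they were hsa-miR-1469 (2843 on HuH-7-M, 1599 on HuH-7-P) at a distance of 0.16 and hsa-miR-3196 (2926 and 1751) at 0.20. For hsa-miR-6724-5p they were hsa-miR-1268b (1092 and 681) at 0.12 and hsa-miR-92b-5p (1099 and 689) at 0.14. Only 10 and 15 other miRNAs lay within 0.5 of these 2 members, against 179 for hsa-miR-663b and 152 for hsa-miR-4461. The nearest to hsa-miR-663b were hsa-miR-6893-3p and hsa-miR-6745, both at 0.01 after rounding, and to hsa-miR-4461 hsa-miR-3151-3p and hsa-miR-6769a-3p, both at 0.05. hsa-miR-7641 was nearest to hsa-miR-637 and hsa-miR-4708-3p, and hsa-miR-3687 to hsa-miR-25-3p and hsa-miR-1273a. hsa-miR-4485-5p was nearest to hsa-miR-1913 and hsa-miR-3151-5p, and hsa-miR-4485-3p to hsa-miR-601 and hsa-miR-135b-3p. With 2 arrays, likeness of this kind says only that brightness and ratio are close.

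**Figure D4:**
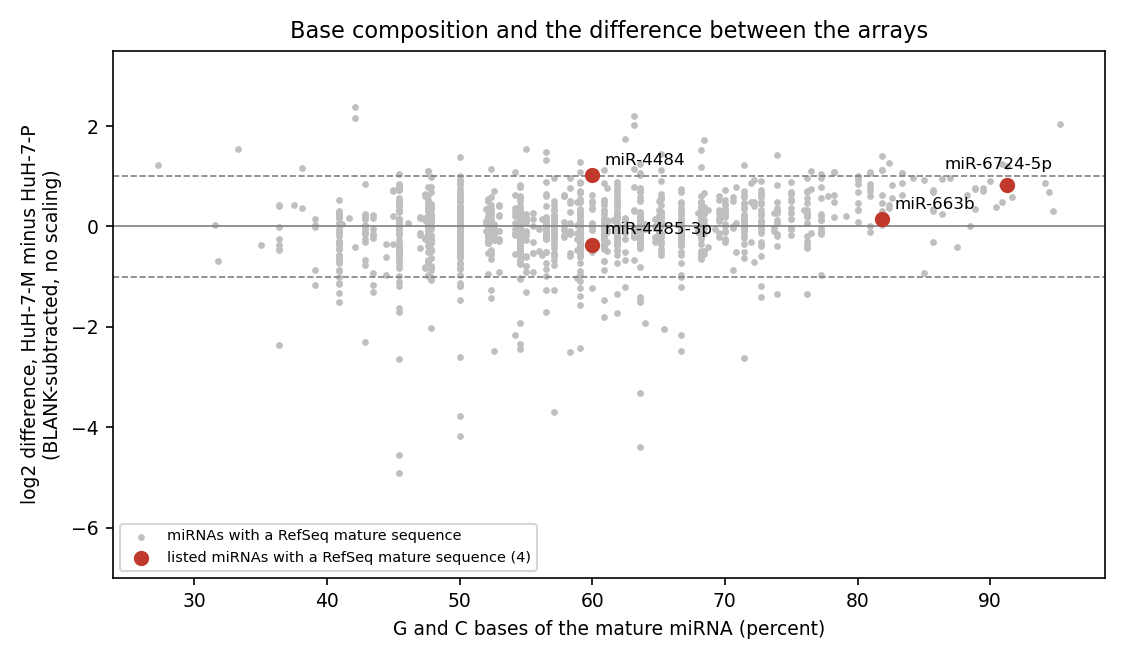
Log2 ratio of the BLANK-subtracted signals (HuH-7-M over HuH-7-P) before scaling, against the share of G and C bases for the 1408 measured miRNAs with a RefSeq mature sequence, with the 4 matched members marked and dashed lines at 2-fold. hsa-miR-4484 (1.02) and hsa-miR-4485-3p (-0.36) have the same share of 60.0% and lie on opposite sides of 0, and hsa-miR-6724-5p (0.82) lies at the G and C rich end.

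Across these 1408 miRNAs the share of G and C bases and the difference before scaling went together weakly (Spearman's rho 0.23, 0.17 normalized), as a description over probes that share the same 2 hybridisations. The 4 matched members do not follow 1 order with base composition, since hsa-miR-663b, with 81.8% G and C, differed by 0.14 and hsa-miR-4484, with 60.0%, by 1.02.

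In such preparations fewer vesicles and less RNA per vesicle cannot be told apart, and neither can the culture and the array. Of 5 listed hepatocyte miRNAs, all passed the BLANK limit on each array and 2 passed the No Probe limit on both, with summed signals of 149 on HuH-7-M against 119 on HuH-7-P. Most of the gap in these sums lay in hsa-miR-122-5p, the leading miRNA of liver, at 1.69-fold, while hsa-miR-192-5p read 24.0 against 27.8 and hsa-miR-194-5p 10.8 against 13.8. Of 9 miRNAs of blood, endothelium, muscle and nerve, 7 passed the BLANK limit on both arrays and 1, hsa-miR-124-3p, also the No Probe limit on both, with summed signals of 124 against 229. The muscle miRNA hsa-miR-206 gave 17.3 and 109 of these sums, and the leukocyte hsa-miR-142-3p and the endothelial hsa-miR-126-3p were below the BLANK limit on both. The 2 Spike Control probes were 1.42-fold and 1.59-fold brighter on HuH-7-M.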

How the data were processed

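miRNA was profiled in exosome RNA of HuH-7-M and HuH-7-P cultures, 1 array each, grouped by sample title. The authors deposited a scanner table per array with the Cy5 spot median intensity, per the file headers, with no background subtracted; the scanner software is not stated there or in the labels. Their value table holds scaled intensity values on a linear scale, and from the scanner values 1739 of 1747 probes above the limit on either array could be matched to 1 row of it within a relative tolerance of 1e-06; 699 of these rows carry the scanner's identifier, so the scanner's names were used.

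BLANK spots were taken as negative controls for normexp (nec, limma 3.58.1, R 4.3.3; offset 50), followed by quantile normalization over miRNA probes and log2. Limits are the mean plus 2 SD of control spots after trimming 5% at each end. The threshold of size was 2-fold. Alternatives changed the background step, offset, scaling and filter, or used the authors' values; scaling to S-Probe26, S-Probe27 and S-Probe28 was chosen after seeing the data. No test was possible. The normalization functions were checked on simulated arrays made from the HuH-7-P array, with no difference between arrays in scale or at the bright end. That check therefore does not bear on how the settings handle such a difference. Named miRNAs are the 8 members, fixed related lists, the 2 probes nearest each member, and any sharing a seed or a 12-base run. Sharing was searched only for the 4 members with a RefSeq mature sequence, among probes that also have such a sequence. Members and lists were chosen with earlier results of these data known. Sequences and neighbouring genes are from RefSeq (GRCh38.p14), matched by name.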

Additional observations from a re-analysis of the deposited data

How the results depend on the processing

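Values count as moved where they shifted by more than 0.25 (log2), the SD of a difference between 2 control spots. No paired analysis was possible because each group has 1 array. With 1 spot and 1 array per group, no setting bears on the spread between cultures, and members under the No Probe limit are limited by signal over background. Leaving out the background correction, an offset of 16, cyclic loess, the No Probe limit and no filter moved no member and not their median of 0.14 (0.18 under the No Probe limit, which leaves out hsa-miR-3687 and hsa-miR-4485-3p). On the Spike Control scale, hsa-miR-3687 was -0.39, hsa-miR-663b -0.52, hsa-miR-6724-5p 0.19, hsa-miR-7641 -0.29, hsa-miR-4485-3p -0.62, hsa-miR-4485-5p -0.82, hsa-miR-4461 -0.62 and the median -0.45. With the BLANK mean subtracted and scaling to S-Probe26, S-Probe27 and S-Probe28, added after seeing the data, they were in that order -0.15, -0.85, -0.17, -0.49, -1.35, -1.31 and -1.07, hsa-miR-4484 was 0.033 and the median -0.67. hsa-miR-4484 was 0.999 without scaling, 1.01 on the median of measured miRNAs, 1.02 with the BLANK mean subtracted and no scaling, 1.04 on the 75th percentile, and 1.06 in the authors' value table. hsa-miR-3687 was 0.84 with the BLANK mean subtracted and no scaling, 0.86 with it subtracted before the quantile step, and 0.87 in the value table. hsa-miR-4485-3p was -0.36 with the BLANK mean subtracted and no scaling and -0.33 in the value table, where the median of 7 members was 0.53. The cause was not tested. Over all measured miRNAs, 7 passed 2-fold upward in HuH-7-M exosomes and 27 downward. These numbers were 19 higher without scaling, 20 on the median scale, 23 on the 75th percentile, 16 with an offset of 16, 2 higher and 73 lower on the Spike Control scale, 53 and 71 with the BLANK mean subtracted and no scaling, 49 and 75 with it subtracted before the quantile step, 62 and 66 in the value table, and 6 and 767 on the S-Probe scale.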

Other observations

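The authors' value table gives another reading for some members, because from part of the way down its row names no longer match the scanner's names. Assigned by value, hsa-miR-4484 had 2648 on HuH-7-M against 1274 on HuH-7-P in that table's units, and hsa-miR-6724-5p had 925 and 514. Taken by its row name, hsa-miR-4484 would have 663 and 303 (log2 difference 1.13) and hsa-miR-4461 386 and 393 (-0.03). hsa-miR-6724-5p and hsa-miR-7641 would have no HuH-7-M value, against 4.55 and 2.68 on HuH-7-P. hsa-miR-663b, hsa-miR-663a and hsa-miR-3648 have the same values either way. For hsa-miR-4485-5p no row matched in both values.

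S-Probe6, a control probe whose target the files do not name, averaged 63.2 on HuH-7-M against 22.9 on HuH-7-P over 8 spots each, a 2.76-fold difference (1.47, with an SD of a difference between 2 spots of 0.19). That is a larger difference before scaling than any of the 8 members had.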
